A study of Mus musculus with 2 samples.

Results

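Genes of the axon guidance families were followed in heart muscle after infarction. They were chosen by symbol and comprise semaphorins of classes 3 to 7, plexins, both neuropilins, ephrins, Eph receptors, Slits, Robo receptors, netrins and Unc5 receptors. The rule found 69 of the 24542 gene symbols of the table. Of these, 68 belong to the 17 families and 1, Plxna4os1, is an antisense RNA of the Plxna4 locus that the name pattern also caught. RNA came from remote left ventricle (scar and border zone excluded) of male C57BL/6 mice, taken 7 days after permanent ligation of the proximal LAD coronary artery. Mice labelled NRK-2 KO were compared with littermates labelled Control. The label names a knockout of nicotinamide riboside kinase 2, the product of Nmrk2. Both groups carry the ligation, and no uninjured group is among the samples. The sources used here do not say how the knockout was made. The labels list 1 sample per genotype, and the table holds 3 numbered libraries for each, called control 1 to 3 and KO 1 to 3.

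These families are known from the developing nervous system, where they steer growing axons, and they also shape blood vessels and the heart. Semaphorins are secreted or membrane-bound ligands of plexins, and most class 3 semaphorins need a neuropilin as co-receptor. Ephrins sit on the cell surface and signal to Eph receptor tyrosine kinases on the neighbouring cell, and the ephrin-bearing cell can be signalled to in return. Slits are secreted ligands of Robo receptors, and netrins are laminin-related ligands of DCC and Unc5 receptors. In the heart and its vessels, Efnb2 and Ephb4 mark arterial and venous endothelium, Plxnd1, Robo4 and Unc5b are endothelial receptors, and Sema3a guides sympathetic nerves.

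The targeted gene did not follow the labels in 1 library. Nmrk2 had 308, 270 and 118 reads in control 1 to 3, and 808, 9 and 0 reads in the libraries labelled KO 1, KO 2 and KO 3. The library labelled KO 1 thus held more Nmrk2 reads than any control library, and each direction below rests on libraries labelled KO. Depth ran from 22377348 to 33086384 counted reads, and guidance genes took 0.239% to 0.339% of them. A count of 0 allows up to 3 reads, or 0.0839 to 0.147 CPM (reads scaled to a common library total, after TMM normalization) depending on the library, a limit that covers counting error only. All 10 cardiomyocyte markers had reads, summing to 71007 to 115147 CPM in control and 42804 to 67887 CPM in the libraries labelled KO. Libraries also differed in other tissues: lung epithelial markers summed to 405 CPM in KO 2 and at most 15.1 CPM elsewhere, and B cell markers to 212 CPM in control 3 and at most 40.5 CPM elsewhere. Adipocyte markers summed to 899.9 CPM in control 3, from 2.63 to 427 CPM elsewhere.

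Levels are compared between genes as FPKM (fragments scaled by transcript length and by library depth), the deposited values summed over a gene's transcripts. Of the 69 genes, 47 had a mean of at least 1 FPKM over the 6 libraries and 16 had at least 10 FPKM. Nrp1, a co-receptor of class 3 semaphorins and of VEGF, was the highest in all 6 libraries, at 81.8, 73.0 and 74.3 FPKM in control and 77.4, 71.8 and 75.3 FPKM in the libraries labelled KO. The plexins Plxnb2, a class 4 semaphorin receptor, and Plxnd1 were next in every library, with means of 44.97 and 32.0 FPKM. The following genes, by mean, were the venous receptor Ephb4 (24.7 FPKM), Nrp2 (22.7 FPKM), the netrin Ntn1 (21.9 FPKM) and its receptor Unc5b (18.8 FPKM). The ranges of these 4 genes over the libraries overlapped, so their order is not fixed. Receptors filled 6 of these 7 places. At the other end, 8 genes were below the abundance filter of the test, with at most 13 reads over all libraries: Efna3, Epha5, Epha6, Epha8, Epha10, Ntn5, Robo3 and Unc5d. Epha8 had 0 reads in all 6.

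**Figure D1:**
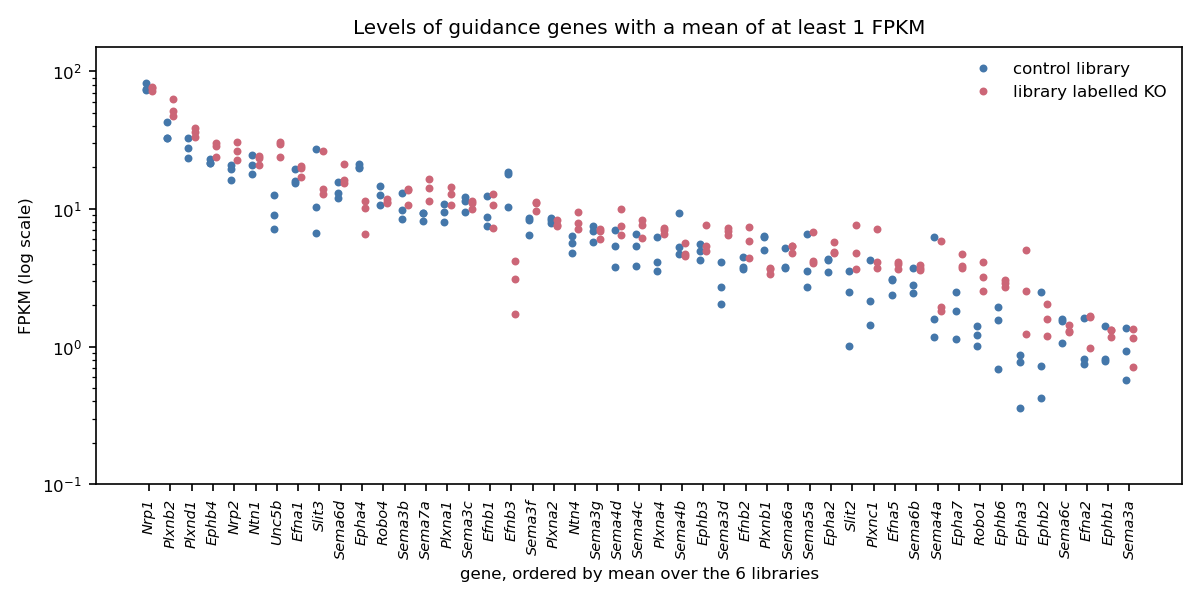
FPKM on a log axis of the 47 guidance genes with a mean of at least 1 FPKM, ordered by that mean, with 1 point per library (blue, control; red, labelled KO). Nrp1, Plxnb2 and Plxnd1 lead in both genotypes, and the points of Efnb3, Epha4 and Unc5b separate by genotype.

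Against control, Sema3d, a secreted semaphorin, Robo1, a Slit receptor, and Unc5b, a netrin receptor, rose in the libraries labelled KO, by 2.21, 2.495 and 2.67 times. Efnb3, a transmembrane ephrin, Epha4, an Eph receptor, and Plxnb1, a plexin, fell, by 5.63, 2.32 and 1.75 times. The comparison asks which guidance genes differ between hearts labelled KO and control hearts after infarction. Read counts summed per gene were tested over the 6 libraries with edgeR's quasi-likelihood test and Benjamini-Hochberg adjustment over all 14466 genes tested. A gene rose or fell where the adjusted p was under 0.05, and log2 fold changes are KO over control. Of the 61 guidance genes tested, 3 rose and 3 fell, against 2.61% and 1.09% of all genes tested (3.7% in either direction). An unadjusted p under 0.05 was found for 16 of the 61, against 25.9% of all genes tested. DESeq2 called 6 guidance genes risen and 3 fallen, against 7.71% and 9.19% of all genes tested. The 6 genes past edgeR's test belong to 6 families, 1 a ligand that is secreted, 1 a ligand on the cell surface and 4 receptors. In CPM, all 3 libraries labelled KO lay above all control libraries for 18 of the 61 genes and below them for 4, against 16.4% and 14.5% of all genes tested. The fitted change was above 0 for 47 of the 61 genes, against 51.0% of all genes tested. The median log2 fold change was 0.32 over guidance genes and 0.01 over all genes tested. These counts and medians describe the group and are no test of it. Nothing in the labels says that libraries of a genotype came from separate animals. A p-value here reflects how far these libraries spread, which need not be the spread between animals. Libraries of a genotype also differed in tissue content, with lung epithelial markers at 0, 405 and 15.1 CPM in KO 1 to 3.

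**Figure D2:**
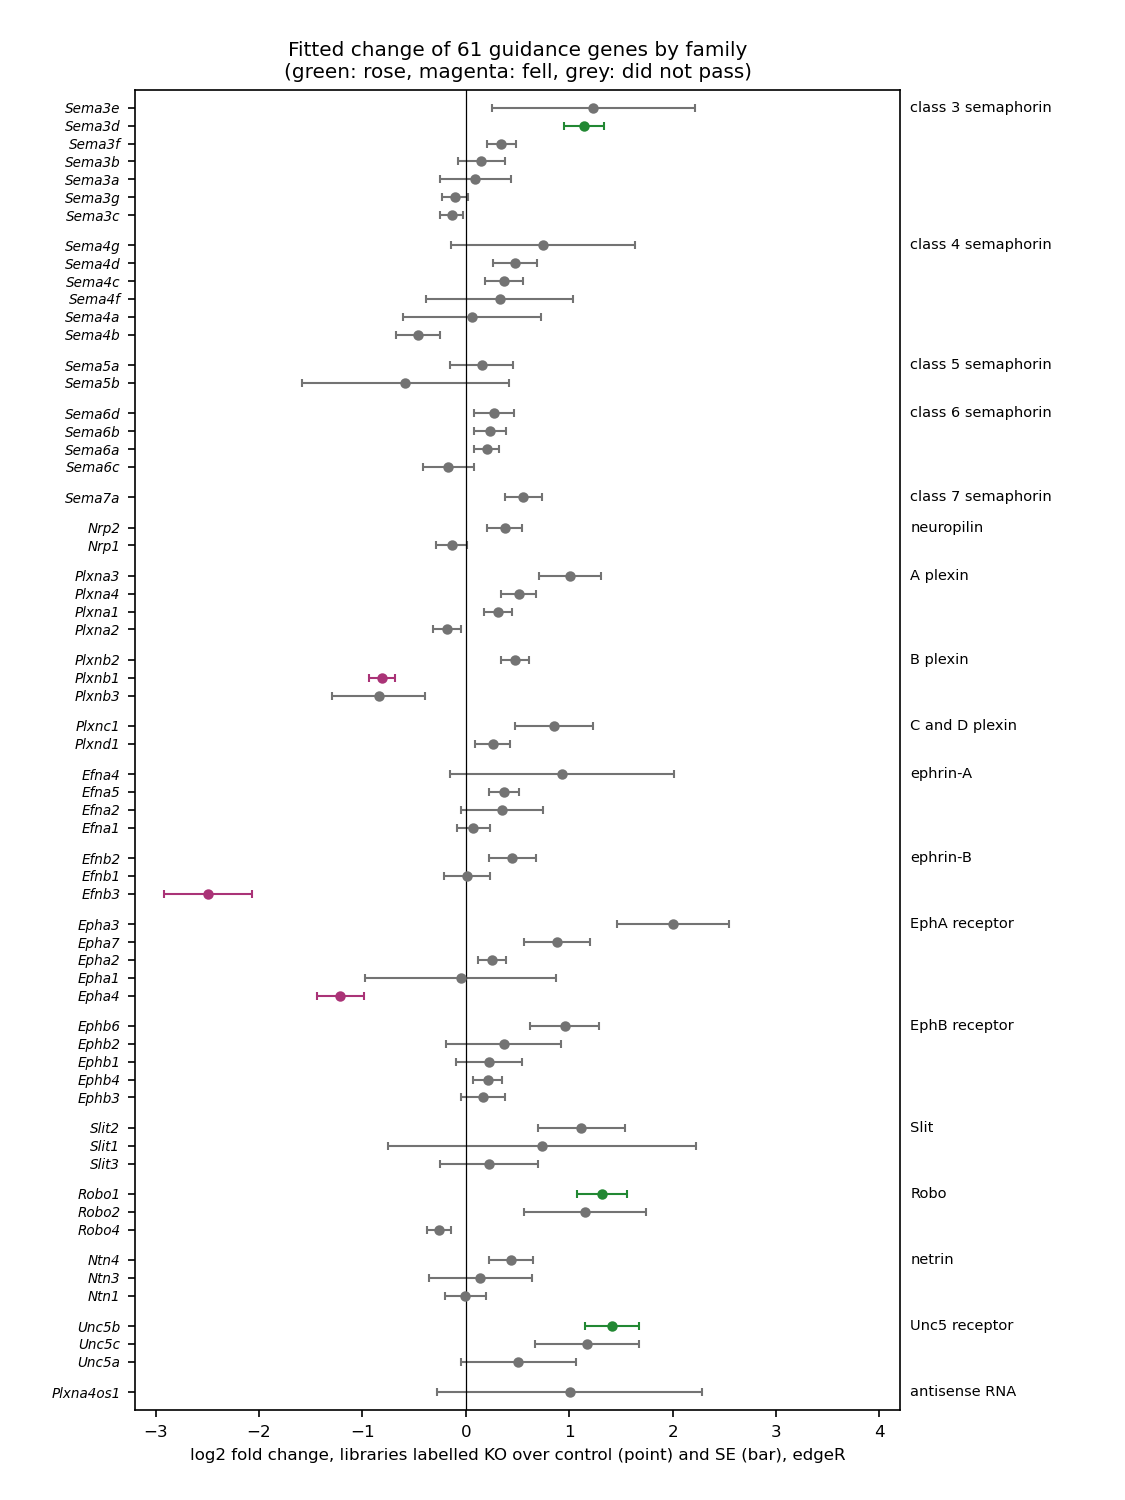
Fitted log2 fold change (libraries labelled KO over control, edgeR) of the 61 guidance genes tested, by family, with the SE as a bar (green, rose; magenta, fell; grey, did not pass). Efnb3 lies at -2.49, the lowest of the 61, and the 3 genes that rose lie between 1.15 and 1.41.

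Sequences before the start are shown for Sema3d, Robo1 and Unc5b because these are the 3 guidance genes that rose. Each is the stretch of 250 bases that ends just before the annotated start, 5′ to 3′ on the gene's strand, from the RefSeq promoter table (GRCm38.p6, the assembly that mm10 names), and none of the stretches overlaps an exon of GENCODE M21. They lie at chr5:12382916-12383165 (plus strand), chr16:72662899-72663148 (plus strand) and chr10:60831582-60831831 (minus strand). Capitals mark matches on either strand to 6 motifs searched: TATAAA (the TATA box), CANNTG (the E-box), GGGCGG (the GC box), GGAATG (bound by TEAD factors), TGANTCA (bound by AP-1) and AGATAA (bound by GATA factors).
Sema3d: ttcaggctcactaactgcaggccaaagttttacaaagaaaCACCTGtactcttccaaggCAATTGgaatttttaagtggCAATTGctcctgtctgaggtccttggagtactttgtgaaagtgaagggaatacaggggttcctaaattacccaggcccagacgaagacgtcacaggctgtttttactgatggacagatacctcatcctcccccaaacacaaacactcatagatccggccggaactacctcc
Robo1: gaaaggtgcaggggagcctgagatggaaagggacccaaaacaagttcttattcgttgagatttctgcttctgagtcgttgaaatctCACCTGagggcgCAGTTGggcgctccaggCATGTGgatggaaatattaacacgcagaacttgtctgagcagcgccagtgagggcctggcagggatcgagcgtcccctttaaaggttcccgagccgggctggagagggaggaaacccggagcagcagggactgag
Unc5b: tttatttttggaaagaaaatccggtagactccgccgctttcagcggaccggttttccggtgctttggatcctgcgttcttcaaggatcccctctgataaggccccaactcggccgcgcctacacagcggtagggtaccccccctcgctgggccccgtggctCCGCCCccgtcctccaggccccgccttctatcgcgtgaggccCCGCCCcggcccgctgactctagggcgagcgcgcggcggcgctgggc
Sema3d and Robo1 each hold 3 matches to CANNTG and 0 to the other motifs, and Unc5b holds 2 matches to GGGCGG and 0 to the others. G and C make up 46.8% of the Sema3d stretch, 56.0% of that of Robo1 and 66.8% of that of Unc5b. The table held 75 promoters for 59 of the 69 genes. GGGCGG was found in 70.7% of them and in 32.7% of all 32851 promoters of the table, CANNTG in 48.0% and 66.2%, and TATAAA in 2.67% and 12.4%. The shares for GGAATG were 10.7% and 12.6%, for TGANTCA 4% and 6.75%, and for AGATAA 4% and 9.99%. Median GC content was 64.4% for promoters of guidance genes and 52.4% for all. A match is a run of letters and no evidence of binding.

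**Figure D3:**
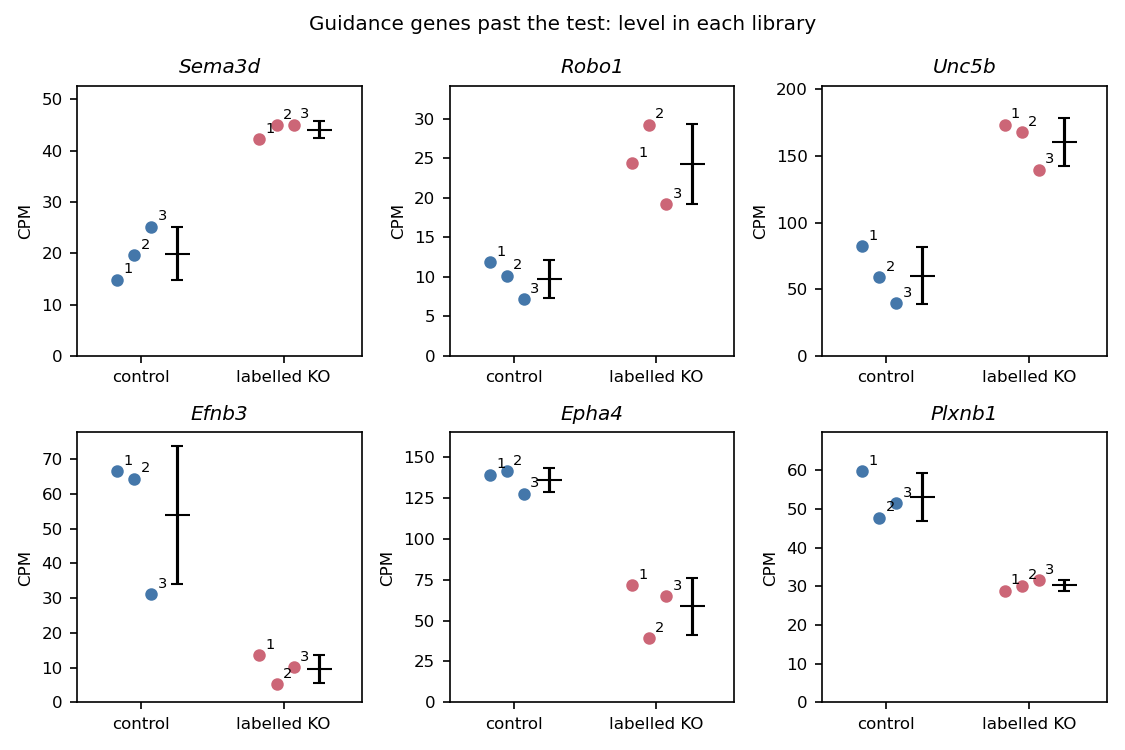
CPM of the 6 guidance genes past the test in each library (points, numbered as the libraries are), with mean and SD over the 3 libraries of a genotype (black). In each panel the control libraries and the libraries labelled KO do not overlap.

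Among semaphorin ligands, Sema3d rose. Sema3d (mm10, gene ID 108151, chromosome 5 from 12383166 to 12588943) encodes a secreted class 3 semaphorin known for its part in patterning coronary and pulmonary veins. It stood at 14.9, 19.7 and 25.2 CPM in control 1 to 3 and 42.2, 44.9 and 45.1 CPM in the libraries labelled KO 1 to 3. The libraries labelled KO lay close together, above control 3, the highest control library. The means were 19.9 ± 5.17 against 44.1 ± 1.61 CPM (SD, n = 3 libraries each), and edgeR gave a 2.21-fold rise (log2 fold change 1.15, SE 0.20, adjusted p = 0.0348). The other 6 class 3 genes did not pass. Sema3f had an unadjusted p under 0.05 by edgeR (adjusted p = 0.185). It was at 32.1, 24.2 and 26.6 CPM in control 1 to 3 and 37.4, 35.4 and 32.5 CPM in the libraries labelled KO 1 to 3, just without overlap. The most abundant of the 6 by FPKM were Sema3b at 11.6 FPKM and Sema3c, which guides the cardiac outflow tract, at 10.9 FPKM. Sema3c was at 57.6 ± 5.12 against 52.3 ± 2.56 CPM (adjusted p = 0.48 by edgeR) and Sema3b at 43.5 ± 13.3 against 48.1 ± 5.47 CPM (adjusted p = 0.722 by edgeR). Sema3a, the semaphorin of sympathetic innervation, was low at 1.01 FPKM, with 4.36, 6.89 and 8.88 CPM in control and 7.94, 8.62 and 4.93 CPM in the libraries labelled KO, and the groups overlapped. The ratio of Sema3d to Sema3c FPKM, which no scaling of libraries can change, was 0.179, 0.284 and 0.334 in control 1 to 3 and 0.648, 0.644 and 0.628 in the libraries labelled KO 1 to 3.

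None of the 13 semaphorins of classes 4 to 7 passed edgeR's test, and 1 of them, Sema7a, had an unadjusted p under 0.05. Sema7a, a lipid-anchored semaphorin that signals through integrins and Plxnc1, stood at 29.5, 33.8 and 28.9 CPM in control 1 to 3 and 46.6, 35.2 and 54.0 CPM in the libraries labelled KO 1 to 3 (adjusted p = 0.111 by edgeR). Its control libraries all lay below its libraries labelled KO, the nearest being control 2 and KO 2. Sema6d, a ligand of A plexins in heart development, was the most abundant of the group at 15.5 FPKM, with 86.5 ± 17.6 against 105 ± 19.8 CPM (adjusted p = 0.416 by edgeR). Sema4d, a ligand of Plxnb1, was at 25.3 ± 5.68 against 35.1 ± 6.39 CPM and Sema4b at 26.4 ± 7.68 against 19.2 ± 1.54 CPM (edgeR adjusted p = 0.216 and 0.228). Sema5a was at 47.4 ± 17.7 against 52.8 ± 14.6 CPM and Sema6c at 5.83 ± 1.20 against 5.18 ± 0.582 CPM (edgeR adjusted p = 0.786 and 0.7). Sema4a was uneven within genotypes. It was at 4.27, 5.73 and 18.4 CPM in control 1 to 3 and 5.66, 17.6 and 6.31 CPM in the libraries labelled KO 1 to 3, with control 3 and KO 2 apart from the other 4 libraries.

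Among the receptors of semaphorins, Plxnb1 fell. Plxnb1 (mm10, gene ID 235611, chromosome 9 from 109095436 to 109119915) encodes the plexin that binds Sema4d and acts on RhoA through the exchange factors Arhgef11 and Arhgef12. It was at 59.8, 47.8 and 51.5 CPM in control 1 to 3 and 28.9, 30.2 and 31.7 CPM in the libraries labelled KO 1 to 3. The lowest control library, control 2, was well above the highest library labelled KO. The means were 53.0 ± 6.17 against 30.3 ± 1.38 CPM, a 1.75-fold fall (edgeR: log2 fold change -0.81, SE 0.12, adjusted p = 0.0284). Its relative Plxnb2 was at 237, 237 and 262 CPM in control 1 to 3 and 307, 384 and 336 CPM in the libraries labelled KO 1 to 3, with all control libraries below. It did not pass edgeR's test (adjusted p = 0.0923) and passed that of DESeq2 (adjusted p = 0.00567). The FPKM ratio of Plxnb1 to Plxnb2 was 0.191, 0.152 and 0.149 in control 1 to 3 and 0.0711, 0.0595 and 0.0713 in the libraries labelled KO 1 to 3. The RefSeq gene Gm7628 overlaps the 5′ end of Plxnb1, and the sources used here do not say whether reads were counted by strand. RefSeq genes also overlap Sema3d (Gm8925), Epha4 (Mir6352) and Robo1 (4 predicted genes).

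The other plexins and both neuropilins did not pass. Plxna3 was at 3.73, 2.31 and 4.58 CPM in control 1 to 3 and 6.59, 7.61 and 7.19 CPM in the libraries labelled KO 1 to 3, and its groups did not overlap (adjusted p = 0.0985 by edgeR and 0.024 by DESeq2). Plxna1 was at 89.5 ± 7.85 against 111 ± 13.7 CPM and Plxna2 at 96.3 ± 12.6 against 84.8 ± 7.18 CPM (edgeR adjusted p = 0.201 and 0.436). Plxna4, with Plxna3 a receptor for class 3 semaphorins in complex with neuropilins, was at 49.2, 57.3 and 74.6 CPM in control 1 to 3 and 82.0, 83.7 and 92.4 CPM in the libraries labelled KO 1 to 3 (adjusted p = 0.119 by edgeR). Its antisense RNA Plxna4os1 had at most 2.11 CPM in any library, and without strand the reads of the pair cannot be told apart. Plxnc1, the Sema7a receptor, was at 11.3, 16.8 and 28.5 CPM in control 1 to 3 and 29.0, 47.3 and 26.1 CPM in the libraries labelled KO 1 to 3, with control 3 inside the range of the libraries labelled KO (adjusted p = 0.21 by edgeR). Plxnd1 was at 204 ± 40.3 against 245 ± 20.7 CPM, Nrp1 at 478 ± 61.4 against 435 ± 30.2 CPM and Nrp2 at 126 ± 20.4 against 164 ± 24.7 CPM (edgeR adjusted p = 0.371, 0.609 and 0.215).

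The largest fall of the group was that of an ephrin. Efnb3 (mm10, gene ID 13643, chromosome 11 from 69554092 to 69560237) encodes ephrin-B3, a transmembrane ligand of EphB receptors and of Epha4, best known as a midline barrier to axons in the spinal cord. Efnb3 was at 66.5, 64.3 and 31.1 CPM in control 1 to 3 and 13.5, 5.23 and 10.1 CPM in the libraries labelled KO 1 to 3. Control 3 was the lowest control library, still above KO 1, and KO 2 was the lowest of all. The means were 54.0 ± 19.9 against 9.60 ± 4.15 CPM, and edgeR gave a 5.63-fold fall (log2 fold change -2.49, SE 0.43, adjusted p = 0.0348). Without control 3 the log2 fold change was -2.77, and without the library labelled KO 1 it was -2.82. The other B ephrins did not pass. Efnb2, the arterial ephrin, was at 21.5, 18.1 and 15.002 CPM in control 1 to 3 and 31.9, 23.8 and 18.9 CPM in the libraries labelled KO 1 to 3, with overlapping groups (adjusted p = 0.265 by edgeR). Efnb1 was at 33.3 ± 5.91 against 33.6 ± 8.32 CPM (adjusted p = 0.98 by edgeR). The FPKM ratio of Efnb3 to Efnb2 was 4.16, 4.78 and 2.79 in control 1 to 3 and 0.569, 0.295 and 0.715 in the libraries labelled KO 1 to 3, so that Efnb3 was above Efnb2 in each control library and below it in each library labelled KO. Of the A ephrins, which are anchored by a lipid, 0 of 4 tested passed edgeR's test, and 1 had an unadjusted p under 0.05. Efna1, an endothelial ligand of Epha2, led them at 18.0 FPKM and was at 26.5 ± 4.83 against 27.9 ± 2.51 CPM (adjusted p = 0.814 by edgeR). Efna5 was at 13.9, 18.0 and 15.002 CPM in control 1 to 3 and 20.8, 20.5 and 19.3 CPM in the libraries labelled KO 1 to 3, without overlap (adjusted p = 0.163 by edgeR).

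A receptor of ephrin-B3 fell as well. Epha4 (mm10, gene ID 13838, chromosome 1 from 77367185 to 77515088) encodes an Eph receptor that binds ephrins of both classes, and it was the most abundant Eph receptor of class A, with 19.8, 20.1 and 21.3 FPKM in control and 11.4, 6.56 and 10.2 FPKM in the libraries labelled KO. In CPM it was at 139, 141 and 127 CPM in control 1 to 3 and 71.8, 39.1 and 64.8 CPM in the libraries labelled KO 1 to 3. The control libraries were close to each other, and KO 2 was the lowest. The means were 136 ± 7.42 against 58.6 ± 17.2 CPM, a 2.32-fold fall (edgeR: log2 fold change -1.21, SE 0.23, adjusted p = 0.0411). Epha3, a receptor of A ephrins known from the forming atrioventricular cushions, had the highest fitted change of the 61 genes, from low levels. It was at 1.62, 3.47 and 3.32 CPM in control 1 to 3 and 10.01, 18.9 and 4.89 CPM in the libraries labelled KO 1 to 3. It was not called by edgeR (log2 fold change 2.0, SE 0.54, adjusted p = 0.086), though DESeq2 called it (adjusted p = 0.0046). KO 2, the library with lung markers, held the highest Epha3 level, and without it the log2 fold change was 1.41. The part of lung RNA in it was not tested. Epha7 was at 13.0, 18.6 and 7.26 CPM in control 1 to 3 and 25.7, 23.7 and 22.2 CPM in the libraries labelled KO 1 to 3, without overlap (adjusted p = 0.142 by edgeR), and Epha2 and Epha1 did not pass either.

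None of the 5 EphB receptors passed edgeR's test, and 1 of them, Ephb6, had an unadjusted p under 0.05. Ephb4, the receptor of Efnb2 on veins, was the most abundant at 111, 103 and 88.1 CPM in control 1 to 3 and 129, 117 and 104 CPM in the libraries labelled KO 1 to 3 (adjusted p = 0.374 by edgeR), and its groups overlapped. Ephb6, which lacks kinase activity, was at 2.89, 6.55 and 6.97 CPM in control 1 to 3 and 10.1, 10.9 and 10.9 CPM in the libraries labelled KO 1 to 3, without overlap (adjusted p = 0.136 by edgeR). Ephb3 was at 21.7 ± 4.51 against 24.4 ± 4.99 CPM (adjusted p = 0.666 by edgeR). Ephb2 ran from 5.15 CPM in control 1 to 25.7 CPM in control 3, a range that contains all 3 libraries labelled KO.

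In the Slit and Robo system a receptor rose. Robo1 (mm10, gene ID 19876, chromosome 16 from 72663149 to 73046100) encodes a broadly expressed Slit receptor with a part in heart septation and vessel growth. Robo1 was at 11.9, 10.2 and 7.22 CPM in control 1 to 3 and 24.4, 29.3 and 19.2 CPM in the libraries labelled KO 1 to 3. The libraries labelled KO were all higher than control 1, the highest control library, and KO 2 was the highest. The means were 9.75 ± 2.35 against 24.3 ± 5.03 CPM, a 2.495-fold rise (edgeR: log2 fold change 1.32, SE 0.24, adjusted p = 0.0405). The level stayed low, at 1.21 ± 0.200 against 3.29 ± 0.788 FPKM. Robo4, the Robo receptor of endothelium, was the most abundant Robo in each library. It was at 54.3, 46.0 and 53.4 CPM in control 1 to 3 and 42.5, 40.8 and 45.3 CPM in the libraries labelled KO 1 to 3. The groups did not overlap in CPM, but Robo4 did not pass the test (adjusted p = 0.216 by edgeR). In FPKM they overlapped, at 12.7, 10.7 and 14.7 in control and 11.0, 11.2 and 11.7 in the libraries labelled KO. The FPKM ratio of Robo1 to Robo4 was 0.111, 0.112 and 0.0685 in control 1 to 3 and 0.292, 0.365 and 0.216 in the libraries labelled KO 1 to 3. Robo2 stayed at or below 7.02 CPM in each library. Of the ligands, Slit2 was at 11.3, 27.5 and 33.3 CPM in control 1 to 3 and 47.8, 72.3 and 36.3 CPM in the libraries labelled KO 1 to 3, with control 1 lowest, KO 2 highest and no overlap (adjusted p = 0.157 by edgeR). Slit3, the most abundant Slit, was at 36.8, 57.2 and 128 CPM in control 1 to 3 and 69.9, 124 and 64.2 CPM in the libraries labelled KO 1 to 3. Its spread within each genotype was larger than the difference between their means, with control 3 and KO 2 high (edgeR: log2 fold change 0.22, SE 0.48, adjusted p = 0.805). Slit1 had at most 1.12 CPM.

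In the netrin system a receptor rose, and the most abundant ligand did not pass the test. Unc5b (mm10, gene ID 107449, chromosome 10 from 60762595 to 60831581) encodes a netrin receptor of vascular endothelium that also binds Robo4. Unc5b was at 82.2, 59.1 and 39.4 CPM in control 1 to 3 and 174, 168 and 139.9 CPM in the libraries labelled KO 1 to 3. The library lowest among those labelled KO, KO 3, was above control 1, the highest control library, and control 3 was the lowest of all. The means were 60.2 ± 21.4 against 161 ± 18.1 CPM, a 2.67-fold rise (edgeR: log2 fold change 1.41, SE 0.27, adjusted p = 0.0419). In FPKM it went from 12.6, 9.06 and 7.11 to 29.7, 30.4 and 23.8, and its rank among the guidance genes was 4 in KO 2 and 5 in KO 3. Ntn1, the classical netrin, was at 158, 132 and 96.7 CPM in control 1 to 3 and 138, 113 and 134 CPM in the libraries labelled KO 1 to 3, and the groups overlapped (edgeR: log2 fold change -0.00498, SE 0.20, adjusted p = 0.991). The FPKM ratio of Unc5b to Ntn1 was 0.509, 0.438 and 0.398 in control 1 to 3 and 1.23, 1.45 and 1.02 in the libraries labelled KO 1 to 3. Ntn4, a netrin of basement membranes, was at 17.1, 15.2 and 10.9 CPM in control 1 to 3 and 17.3, 18.1 and 23.1 CPM in the libraries labelled KO 1 to 3, just without overlap (adjusted p = 0.245 by edgeR). Unc5c was at 3.73, 3.42 and 3.65 CPM in control 1 to 3 and 5.52, 14.9 and 3.87 CPM in the libraries labelled KO 1 to 3 (adjusted p = 0.202 by edgeR). Its highest value came from KO 2, and without that library the log2 fold change of 1.17 was 0.38.

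**Figure D4:**
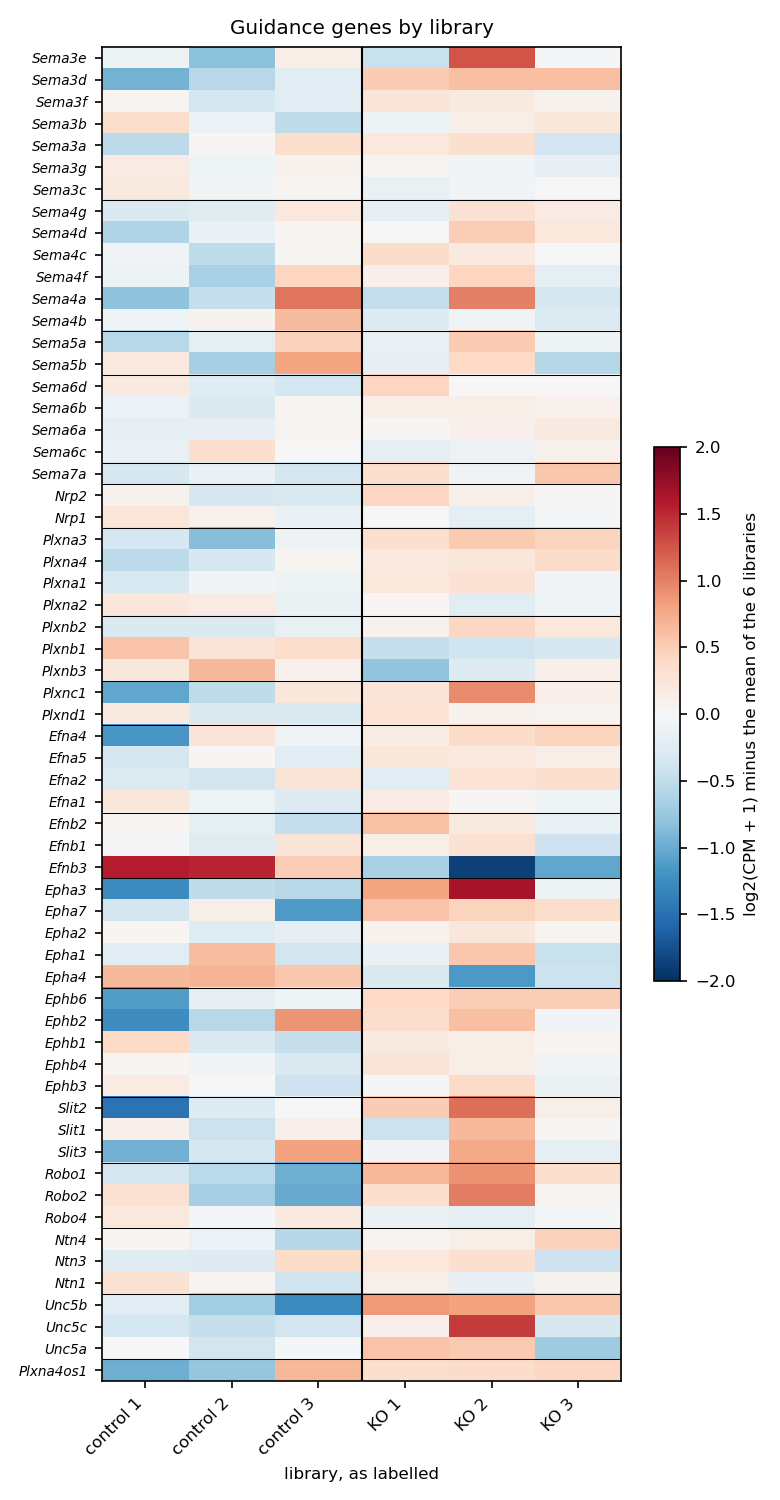
log2(CPM + 1) of the 61 guidance genes tested in each library, minus the mean of the 6 libraries (red, above; blue, below), with families set apart by lines. Efnb3 and Epha4 are red in control and blue in the libraries labelled KO, Sema3d, Robo1 and Unc5b the reverse, and KO 2 stands out for Sema3e, Epha3 and Unc5c.

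Summed cell type markers differed between genotypes for some cell types and overlapped for others. In bulk tissue, fewer cells of a type and less RNA per cell cannot be told apart. The marker lists were chosen with earlier results of these data known, so their counts are no test. The counts below stand beside shares of all genes tested by edgeR. Of these, 2.61% rose, 1.09% fell, 25.9% had an unadjusted p under 0.05 and 51.0% had a fitted change above 0. Of 10 cardiomyocyte markers 0 passed edgeR's test (7 had an unadjusted p under 0.05), all 10 had a lower fitted level, and their sums did not overlap between genotypes. Of 8 activated fibroblast markers 4 rose and 0 fell, and they summed to 1104 to 2925 CPM in control and 9897 to 11819 CPM in the libraries labelled KO. Fibroblast markers summed to 8587 to 19335 CPM in control and 24269.9 to 35889 CPM in the libraries labelled KO. Of these 10 markers 1 rose and 1, Gsn, fell. Col3a1 had the largest difference of this list, and without it the sums were 5782 to 10313 against 12505 to 18715 CPM. Libraries labelled KO lay above all control libraries for 6 of the 10 and below for 1, against 16.4% and 14.5% of all genes tested. For Pdgfra, Dcn and Dpt the groups overlapped. The 10 general endothelial markers had 0 risen and 1 fallen, with sums of 1951 to 2350.3 CPM in control and 1685 to 2147 CPM in the libraries labelled KO. Of 6 arterial endothelial markers 1 rose and 0 fell, and the sums were 125 to 138 CPM in control and 261 to 336 CPM in the libraries labelled KO. Fbln5, the gene that rose, made up most of that difference, and without it the sums were 66.2 to 70.4 against 77.1 to 102 CPM. Macrophage markers summed to 494 to 1315 CPM in control and 1159 to 1549.6 CPM in the libraries labelled KO, with 0 of 8 past edgeR's test and 3 at an unadjusted p under 0.05. Pericyte and smooth muscle markers summed to 2232 to 2761 CPM in control and 2235 to 2595 CPM in the libraries labelled KO, with 1 of 10 risen. Schwann and nerve markers, with 1 of 9 tested risen and 1 fallen, summed to 206 to 273 CPM in control and 336 to 389.9 CPM in the libraries labelled KO, and without Prnp to 56.6 to 65.0 against 82.9 to 114 CPM. Atrial markers summed to 151 to 1018 CPM in control and 2500.4 to 3173 CPM in the libraries labelled KO, with 0 of 5 tested past edgeR's test, 2 at an unadjusted p under 0.05 and Bmp10 at 0 reads. Nppa carried this sum, which without it was 43.2 to 545 against 152 to 637 CPM. Of the other atrial markers tested, Myl4, Myl7 and Sln were fitted lower, and Myl7 was at 204, 162 and 0 CPM in control 1 to 3 and 127, 1.15 and 0.219 CPM in the libraries labelled KO 1 to 3. Lymphatic endothelial markers summed to 164 to 201 CPM in control and 131 to 149 CPM in the libraries labelled KO, with 2 of 5 fitted higher and 3 lower. Prox1 had the largest difference of this list, and without it the sums overlapped, at 84.6 to 156 against 90.2 to 117 CPM. Endocardial markers summed to 72.7 to 90.1 CPM in control and 60.3 to 85.6 CPM in the libraries labelled KO. Sums of erythroid markers were 22.9 to 686 CPM in control and 10.4 to 83.1 CPM in the libraries labelled KO, and those of neutrophil, T cell, and epicardial and mesothelial markers overlapped between genotypes. None of these 6 lists had a gene past edgeR's test, and 3 more lists, those for B cells, adipocytes and lung epithelium, had none either (5 genes of the 9 lists had an unadjusted p under 0.05). The part of cell composition in the changes of Sema3d, Robo1, Unc5b, Efnb3, Epha4 and Plxnb1 was not tested.

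Partners and effectors of the guidance families were read from a list of 85 genes found in the table, of which 82 could be tested. Of these, 8 rose and 0 fell, against the same 2.61% and 1.09% of all genes tested, and 31 had an unadjusted p under 0.05, against 25.9% of all genes tested. The median log2 fold change was 0.26. This list was chosen with earlier results of these data known, so its counts describe it and are no test of it. Of 20 plexin effectors 3 rose. Dpysl3, a collapsin response mediator that relays semaphorin signals to the cytoskeleton, was at 140.1, 153 and 129.5 CPM in control 1 to 3 and 325, 379 and 329 CPM in the libraries labelled KO 1 to 3 (edgeR: log2 fold change 1.29, SE 0.13, adjusted p = 0.0116). Mical2, an actin-oxidising enzyme of the MICAL family, rose from 72.7 ± 16.5 to 169.9 ± 6.47 CPM, and Farp1, an exchange factor for Rac, from 25.2 ± 3.41 to 48.5 ± 6.44 CPM (edgeR adjusted p = 0.0268 and 0.0328). Of 17 effectors of Eph receptors and ephrins 2 rose, the Rac exchange factor Tiam1, from 17.8 ± 0.527 to 35.6 ± 5.74 CPM, and the ubiquitin ligase Pdzrn3, from 71.4 ± 2.89 to 114 ± 9.15 CPM (edgeR adjusted p = 0.0246 and 0.0314).

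In the Slit and Robo list 1 of 9 genes rose, Srgap3, a GTPase-activating protein that binds Robo receptors, which was at 3.97, 6.79 and 7.10 CPM in control 1 to 3 and 14.0, 22.4 and 19.96 CPM in the libraries labelled KO 1 to 3 (adjusted p = 0.0365 by edgeR). Of 15 semaphorin co-receptors and partners 1 rose, the integrin chain Itgb1, a Sema7a receptor, which went from 658 ± 53.1 to 1069.5 ± 15.1 CPM (edgeR's adjusted p = 0.0498). Of 12 shared actin regulators 1 rose, the kinase Pak3, which went from 2.29 ± 1.32 to 11.9 ± 3.04 CPM (edgeR's adjusted p = 0.0403). The netrin, RGM and DCC receptor list had 0 of 9 tested genes past edgeR's test, 1 of them at an unadjusted p under 0.05. Its lowest change was that of Hfe2, the muscle RGM protein hemojuvelin, at 175, 165 and 92.1 CPM in control 1 to 3 and 79.6, 40.0 and 70.2 CPM in the libraries labelled KO 1 to 3 (adjusted p = 0.0905 by edgeR). Among other genes at the ends of the list, Cd72, a receptor of Sema4d, was at 7.66 ± 3.96 against 24.2 ± 4.17 CPM, Dpysl4 at 8.57 ± 3.32 against 3.51 ± 0.855 CPM and Pick1, a PDZ protein that binds ephrins, at 21.2 ± 4.09 against 13.1 ± 1.46 CPM, and none of the 3 passed (edgeR adjusted p = 0.0764, 0.0859 and 0.0823).

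The 6 calls depended on 5 of the 6 libraries. All 6 were kept without control 3, when 9 guidance genes rose and 3 fell against 11.6% and 12.9% of all genes tested. They were all lost without any one of the other 5 libraries, where 0 passed edgeR's test and 11 to 18 had an unadjusted p under 0.05, against 15.5% to 22.9% of all genes tested. Over all genes tested, the share past edgeR's adjusted threshold was then 0.315% with control 1 left out and 0.168% with control 2 left out. With KO 1, KO 2 or KO 3 left out it was 0.597%, 0.322% and 0.0204%. In the fits without a library, log2 fold changes ran from 0.97 to 1.35 for Sema3d, 1.14 to 1.49 for Robo1 and 1.18 to 1.71 for Unc5b. They ran from -2.82 to -2.19 for Efnb3, -1.39 to -0.99 for Epha4 and -0.88 to -0.71 for Plxnb1. Without the library labelled KO 1 the values were 1.18 for Sema3d, 1.32 for Robo1, 1.35 for Unc5b, -1.39 for Epha4 and -0.78 for Plxnb1.

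The table lists 124 transcripts for the 69 genes. Each of the 6 genes past the test has 1 transcript there, as have 42 of the 69 in all. For 23 of the 27 genes with several transcripts, each library held at least 20 reads, and in 17 of the 23 the share of reads given to some transcript differed by more than 20 percentage points between libraries of a genotype. For Ephb6 a single transcript took 100% of the reads in control 1 and 0% in control 2. For Sema3f, the share of 1 of its 2 transcripts was 42.0%, 91.0% and 16.9% in control 1 to 3. The sources used here do not say how reads shared by transcripts were divided, and transcript shares were therefore not compared between genotypes.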

How the data were processed

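Libraries were made by the submitters from total RNA of remote left ventricle with a TruSeq Stranded kit, per the labels' protocols. The deposited table gives raw read counts and FPKM per RefSeq transcript and library, per the file headers; the submitters' processing notes name Bowtie2, HISAT2 and the build mm10 without roles. The sources used here do not give the counting program, its use of strand or its treatment of shared reads. Transcript length is a further column of the authors' file. The 69 guidance genes were found by symbol patterns, and these members and the partner and marker lists were chosen with earlier results of these data known.

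Counts were summed per gene symbol and tested with edgeR 4.0.16 (R 4.3.3): filterByExpr, TMM, quasi-likelihood fit of 3 control libraries against 3 labelled KO, Benjamini-Hochberg threshold 0.05 over 14466 genes. The filter left out 8 members. The edgeR p-values are two-sided, and the SE is the fold change over the root of F. The script was tested on simulated data with the same 3 libraries against 3. It called 33 of 100 genes changed 2-fold, 89 of 100 changed 4-fold and 9 of 14266 unchanged. A gene that did not pass is therefore not shown to be unchanged. Counts of replicate libraries differed by more than sampling noise. Genes named with values are those past the test, and per family the highest FPKM and the highest and lowest fold change at a mean of at least 5 CPM. Partner genes were named by the same test, with the 3 highest and 3 lowest fold changes at 5 CPM. Sema3a, Sema3f, Sema4a, Plxna4, Epha7, Ephb2, Robo2 and Slit1, and the pairs of genes whose ratios are given, were chosen after their values were seen. Motifs were counted in the 250 bases before each start, and bases after the start, planned at first, were left out. Alternatives were DESeq2 1.42.0, limma 3.58.1 on log2(FPKM + 1), other scalings and filters, the most abundant transcript, library number as a block, and leaving out each library. The labels list 1 sample per genotype, so libraries are replicates only as the table's column names number them.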

Additional observations from a re-analysis of the deposited data

How the results depend on the processing

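All 6 calls were kept under RLE scaling, scaling by library totals, no filter on low counts and a filter of 1 CPM in 3 libraries. Scaling by library totals moved the median log2 fold change of all genes to 0.11. DESeq2 called 6 risen guidance genes in 6 families and 3 fallen, adding Epha3, Plxna3 and Plxnb2, and called 22 risen and 3 fallen partner genes (2445 genes in all). Limma on log2(FPKM + 1) called 3 risen and 2 fallen, against 3.01% and 1.71% of all genes tested, and Plxnb1 missed at an adjusted p of 0.0667. With the most abundant transcript only, 0 guidance genes rose or fell by edgeR (against 1.2% of all genes tested; 12 of 60 at an unadjusted p under 0.05, against 22.1%; 0 families; 1 partner gene risen), and the 6 genes, each with 1 transcript and so the same counts, had an adjusted p of 0.0524 to 0.0725. With library number as a replicate block, 0 guidance genes rose or fell by edgeR (against 0.0415% of all genes tested; 17 of 61 at an unadjusted p under 0.05, against 19.6%; 0 families; 0 partner genes risen), and the 6 genes had an adjusted p of 0.0955 to 0.149. The deviations of same-numbered libraries from the mean of their genotype correlated at 0.24, -0.23 and -0.30. The highest correlation, 0.50, was between control 3 and KO 2. Deviations from a mean of 3 libraries offset each other, so these values cannot decide whether libraries were paired by number. Without 1 library, risen guidance genes numbered 0 to 9 and fallen 0 to 3, families with a riser 0 to 8 and with a faller 0 to 3, partner genes risen 0 to 23 and fallen 0 to 4, and the median log2 fold change of guidance genes was 0.20 to 0.38. The highest counts came without control 3, whose B cell and adipocyte markers were the highest. The cause of these changes was not tested.

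Of 504 recomputed fold changes of the 36 genes named by rule, 25 changed sign, in 8 genes and in none of the 6 past the test. On the log2 scale, Efnb1 (0.0126 in the main test) was at -0.0112 with RLE scaling, -0.0111 with DESeq2, -0.00254 with the replicate block, and -0.15 to 0.19 in the tests without 1 library. Ntn1 (-0.00498 in the main test) was at 0.11 with library totals as scaling, 0.00585 with no filter, 0.11 with limma on FPKM, 0.00126 with the most abundant transcript, 0.0174 with the replicate block, and -0.17 to 0.17 in the tests without 1 library. Sema3b (0.15 in the main test) was at -0.14 with the most abundant transcript, and -0.0392 to 0.41 in the tests without 1 library. Sema6c (-0.17 in the main test) was at 0.74 with the most abundant transcript, and -0.29 to 0.00481 in the tests without 1 library. Sema5a (0.15 in the main test) was at -0.10 to 0.49 in the tests without 1 library. Slit3 (0.22 in the main test) was at -0.14 to 0.87 in the tests without 1 library. Efna1 (0.0723 in the main test) was at -0.0342 to 0.23 in the tests without 1 library. Ephb3 (0.16 in the main test) was at -0.0135 to 0.30 in the tests without 1 library. Low counts limit the genes under the filter, with at most 13 reads each.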
